A study of Mus musculus with 6 samples.

Results

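The vanins and the genes that take up and phosphorylate pantothenate are described here across 6 RNA-seq libraries of mouse primary articular chondrocytes, the cells that make joint cartilage. The group holds 6 of the 22173 genes in the deposited table, found by symbol: Vnn1, Vnn3, Pank1, Pank2, Pank3 and Slc5a6. They were chosen by the CPM of the vanins, which stood high in 1 of the 2 aging SNL libraries, so their values in that library, and in each comparison that holds it, are given as a description with no test. All 6 genes passed the filter on low counts.

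The series title concerns aged skin, experimental osteoarthritis and signalling by the IL-36 receptor. All cells were wild type, and each of 3 conditions had 2 libraries. The control cells were compared with cells called aging SNL, and with such cells that also received spesolimab, an antibody that blocks the IL-36 receptor. The labels do not expand SNL and name no dose, time, age of the mice or separate culture for each replicate. The spread behind each p-value is therefore that of these libraries alone, and it could be technical.

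Vanins are pantetheinases, which split pantetheine, a breakdown product of coenzyme A, into pantothenate and cysteamine. Vnn1, the best studied of them, sits on the cell surface. Pantothenate enters cells through the sodium-dependent multivitamin transporter encoded by Slc5a6, which also carries biotin and lipoate. Pantothenate kinases, encoded by Pank1, Pank2 and Pank3, then carry out the first and rate-limiting step of coenzyme A synthesis.

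Libraries held between 16566791 and 17312833 counts. Aging SNL replicate 1 stood apart, with 0.741% of its counts from Col2a1, the main cartilage collagen, against 4.37% to 4.79% in the other libraries. Saa3, an acute-phase gene, took 8.50% of the TPM of that library. It was also the top gene of aging SNL replicate 2, at 2.29% of TPM, while Col2a1 was the top gene of the control and spesolimab libraries. All 8 chondrocyte markers were detected in each library, with a summed level of 13372 CPM in aging SNL replicate 1 and of 63565 to 77148 CPM elsewhere. In bulk RNA, fewer cells of a type and less RNA per cell cannot be told apart.

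Vnn1 and Vnn3 are paralogues that neighbour each other on chromosome 10 in the RefSeq annotation. Whether reads can be assigned to one or the other bears on each value below, so their coding sequences were aligned from the GENCODE transcripts of the GRCm38 build. They had 66.2% identity over 1460 aligned bases. The longest identical run was 12 bases, and the full transcripts shared 0 windows of 50 bases. The counts of both genes were whole numbers in each library. The stretch of 120 coding bases around the longest shared run is shown 5′ to 3′, with the 45 bases that differ in capitals.
Vnn1: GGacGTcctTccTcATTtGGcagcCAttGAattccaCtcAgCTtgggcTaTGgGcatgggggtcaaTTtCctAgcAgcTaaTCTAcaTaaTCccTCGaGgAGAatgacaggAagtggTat
Vnn3: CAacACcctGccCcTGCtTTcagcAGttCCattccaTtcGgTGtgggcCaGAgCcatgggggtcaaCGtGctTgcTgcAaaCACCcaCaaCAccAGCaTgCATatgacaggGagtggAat

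Of the kinases, Pank1 and Pank2 shared the longest identical run, 28 bases, and no pair of the 3 shared a window of 50 bases. Their aligned coding bases were 71.5% to 73.4% identical. Pank2 was the only member whose expected counts were not whole, in all 6 libraries, as estimated counts can be where reads match more than 1 place.

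Vnn1 was measured at 15.7 and 26.1 CPM in the controls, then 469 and 31.3 CPM in the aging SNL pair and 11.4 and 14.8 CPM under spesolimab, where CPM is the count scaled to the size of the library, corrected by TMM. Aging SNL replicate 1 was the high library. Both aging SNL libraries lay above both controls, and both spesolimab libraries lay below them. The means were 20.9 ± 7.36 CPM (SD, n = 2) in control and 13.1 ± 2.35 CPM (SD, n = 2) with spesolimab.

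Vnn3 was measured at 2.23 and 2.80 CPM in the controls, then 92.0 and 8.73 CPM in the aging SNL pair and 2.98 and 3.30 CPM under spesolimab. Both aging SNL libraries lay above the other 4, and the spesolimab libraries lay just above control. Its control counts were 39 and 50, with exact 95% Poisson intervals of 27.7 to 53.3 and 37.1 to 65.9. The spesolimab counts of 51 and 56 had intervals of 38.0 to 67.1 and 42.3 to 72.7, which overlap those of control. Aging SNL replicate 2 had 145 counts, with an interval of 122 to 171. These intervals cover counting error only.

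**Figure D1:**
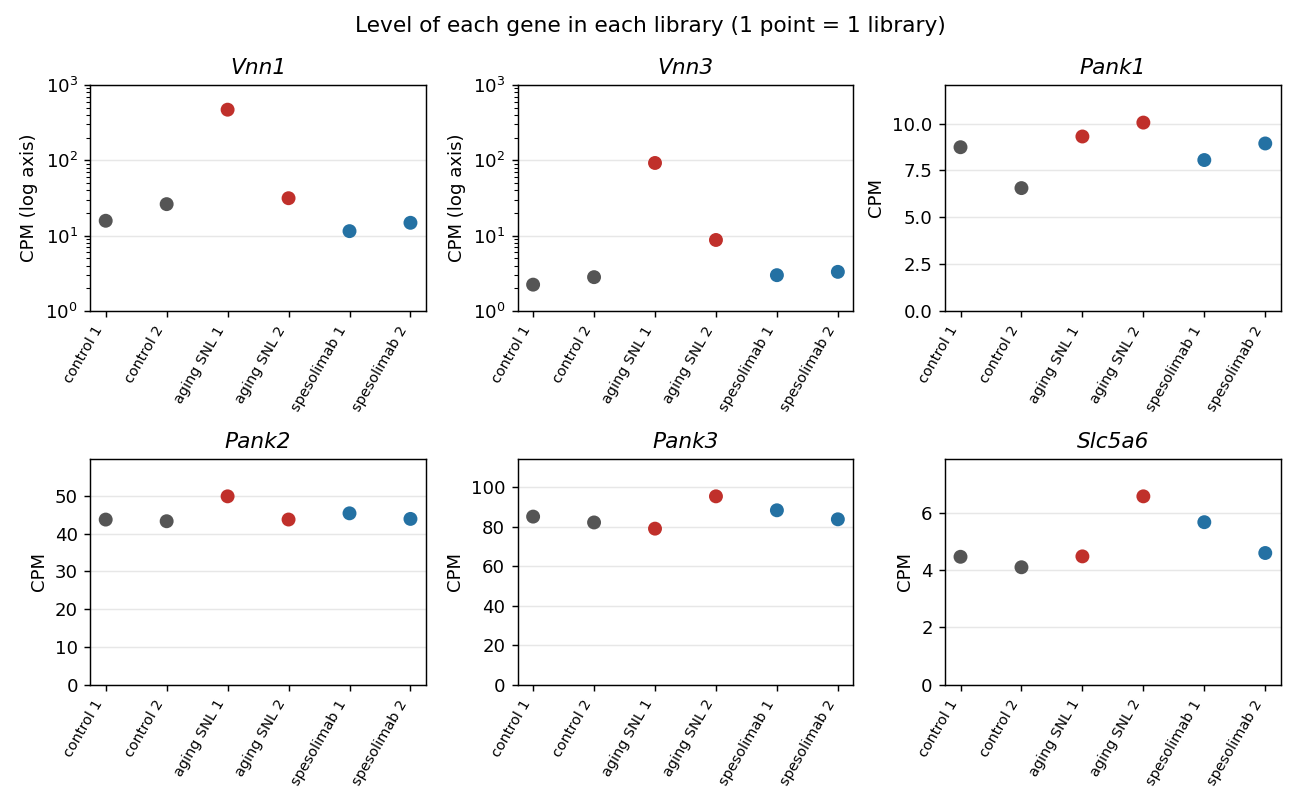
CPM of the 6 genes in each library, with 1 point per library, grey for control, red for aging SNL and blue for aging SNL with spesolimab; the vanin axes are logarithmic. Vnn1 and Vnn3 reach 469 and 92.0 CPM in aging SNL replicate 1, whereas Pank2 stays between 43.3 and 49.9 CPM.

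In the library that chose the genes, Vnn1 stood 4.53 and Vnn3 5.14 above the control mean on the log2 CPM scale. By this difference they ranked 12 and 5 of 13399 genes tested. In aging SNL replicate 2 they stood 0.63 and 1.76 above control and ranked 771 and 90. With both replicates in the fit, the log2 fold change in aging SNL was 3.58 for Vnn1 and 4.32 for Vnn3. With spesolimab against aging SNL it was -4.25 and -4.00. Each of these 4 values includes aging SNL replicate 1. In aging SNL against control the CPM of 5 members, all but Pank3, was higher without overlap, as was that of 20.9% of all genes, with 21.1% lower. In spesolimab against aging SNL the CPM of Vnn1, Vnn3 and Pank1 was lower without overlap, as was that of 13.4% of all genes, with 13.5% higher. Nothing is read from these counts, since the choice of members used the same libraries.

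Aging SNL replicate 2 did not choose the genes and was compared with control in a fit of 5 libraries, without aging SNL replicate 1. The lone library of its group was assumed to vary like those of the other groups, and the controls are the same ones that set the baseline for the choice. Vnn3 rose by 1.79 ± 0.25 (SE) on the log2 scale (edgeR adjusted p = 0.0206), a 3.46-fold difference. It was the 1 member of 6 called, where 3.43% of the 13630 genes tested were called, 1.81% higher and 1.61% lower. The call was lost without the filter on low counts (edgeR adjusted p = 0.0683). It held with RLE scaling, with DESeq2 and with limma on TPM at either pseudocount, with an adjusted p between 0.00693 and 0.0406.

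Vnn1 differed by 0.58 ± 0.28 (SE) in that fit, with a 95% interval of -0.08 to 1.25 (edgeR adjusted p = 0.304). The data therefore leave room for no difference and for one of over 2-fold. Slc5a6 stood at 4.46 and 4.09 CPM in the controls, then 4.47 and 6.57 CPM in the aging SNL pair and 5.66 and 4.59 CPM under spesolimab. Aging SNL replicate 2 was the highest of the 6, at 0.62 ± 0.23 (SE) above control (edgeR adjusted p = 0.205).

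**Figure D2:**
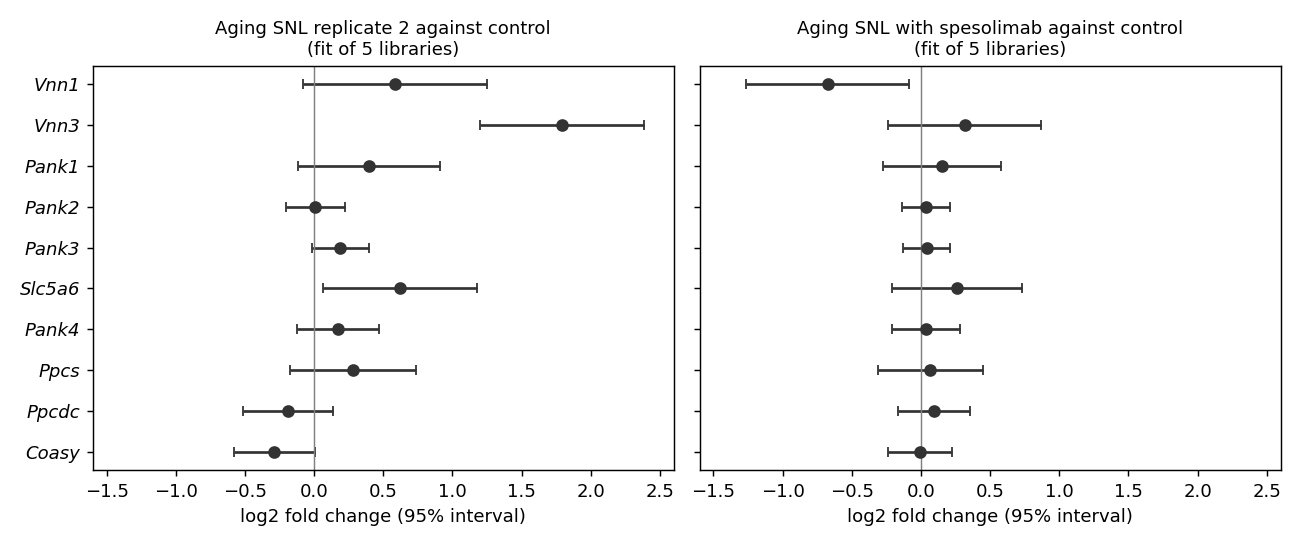
Log2 fold change of the 6 genes and of 4 further coenzyme A genes against control in the fit of 5 libraries, with 95% intervals from the edgeR fit; aging SNL replicate 2 is on the left and spesolimab on the right. Vnn3 on the left, at 1.79, has the largest difference of the genes shown.

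None of the kinases was called in the comparisons that could be tested. Pank1, the least abundant of them, was at 8.74 and 6.56 CPM in the controls, then 9.32 and 10.1 CPM in the aging SNL pair and 8.06 and 8.94 CPM under spesolimab. Its control libraries were 0.41 apart on the log2 scale, where the median gene was 0.12 apart, and the spesolimab values lay between or just above them.

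Pank2, whose human counterpart is mutated in a neurodegeneration with brain iron accumulation, was at 43.7 and 43.3 CPM in the controls, then 49.9 and 43.7 CPM in the aging SNL pair and 45.4 and 43.9 CPM under spesolimab. Its control libraries were 0.01 apart on the log2 scale. Pank3, the most counted of the members in the 5 libraries other than aging SNL replicate 1, was at 85.0 and 82.1 CPM in the controls, then 78.9 and 95.3 CPM in the aging SNL pair and 88.2 and 83.7 CPM under spesolimab. For Pank3 the first aging SNL library was lower, and the second higher, than both controls.

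In the fit of 5 libraries, aging SNL replicate 2 differed from control by 0.01 ± 0.09 (SE) for Pank2, with a 95% interval of -0.20 to 0.22. For Pank3 the difference was 0.19 ± 0.09 (SE), with an interval of -0.02 to 0.40. For Pank1 it was 0.40 ± 0.22 (SE), with an interval of -0.12 to 0.91. The edgeR adjusted p was 0.971 for Pank2, 0.280 for Pank3 and 0.363 for Pank1. A difference of over 1.2-fold was thus outside the interval for Pank2 but not for Pank1 or Pank3.

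Levels of different genes can be set side by side per length, in TPM. In control Pank2 was at 25.4 ± 2.66 TPM (SD, n = 2), Pank3 at 25.3 ± 0.262 TPM and Vnn1 at 21.2 ± 7.67 TPM, and these 3 did not differ beyond their spread. Vnn3 followed at 3.48 ± 0.615 TPM and Slc5a6 at 3.10 ± 0.0566 TPM, again within their spread, and Pank1 was lowest at 2.06 ± 0.410 TPM. In aging SNL replicate 1 the order was led by Vnn1 at 356 TPM and Vnn3 at 95.9 TPM, ahead of Pank2 at 21.7 TPM and Pank3 at 18.1 TPM. In aging SNL replicate 2 Vnn1 was at 29.7 TPM, Pank3 at 27.3 TPM, Pank2 at 24.3 TPM and Vnn3 at 11.4 TPM. With spesolimab the kinases led, with Pank2 at 26.3 ± 0.0849 TPM and Pank3 at 24.4 ± 0.636 TPM above Vnn1 at 12.3 ± 2.43 TPM and Vnn3 at 4.07 ± 0.318 TPM (SD, n = 2).

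The makeup of the pantothenate kinase family by TPM was similar in the 6 libraries. Pank1 supplied 2.54% to 3.96% of the summed TPM of Pank1 to Pank4, Pank2 34.0% to 39.1%, Pank3 31.0% to 38.2% and Pank4 21.7% to 28.5%. Both the lowest Pank3 share and the highest Pank4 share were in aging SNL replicate 1. Pank4, a family member in which the kinase activity is lost and which acts as a phosphatase, had 18.0 and 16.7 CPM in the controls and 23.9 and 19.5 CPM in the aging SNL pair.

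The 2 vanins did not keep a fixed ratio. Vnn1 TPM was 5.19 and 6.81 times Vnn3 TPM in control, 3.71 and 2.61 times in aging SNL, and 2.77 and 3.28 times with spesolimab. Both controls had the highest ratios, and the other 4 libraries overlapped. No test was run on this ratio, a pattern seen in the data that includes the library behind the choice of genes.

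**Figure D3:**
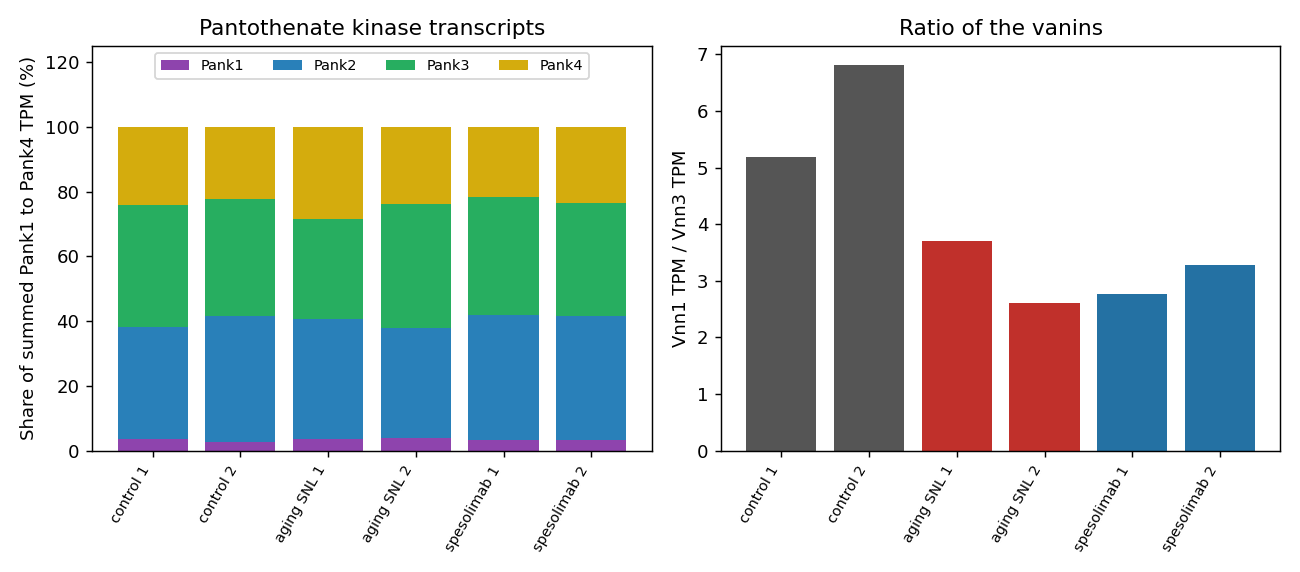
Left, share of each kinase gene in the summed TPM of Pank1 to Pank4 in each library, in percent; right, ratio of Vnn1 TPM to Vnn3 TPM in each library. The kinase shares differ little, with Pank2 at 34.0% to 39.1%, while the vanin ratio is 5.19 and 6.81 in control and 2.61 to 3.71 elsewhere.

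Aging SNL cells with spesolimab were compared with control cells, a comparison that leaves out the library behind the choice of genes but shares its controls. Of the 6 members, 0 were called in the fit of 6 libraries (edgeR). Of all 13399 genes 0, or 0%, were called there by edgeR, with 827 at an unadjusted p under 0.05, against 160 called by DESeq2 and 0 by limma on TPM. Vnn1 was -0.67 ± 1.14 (SE) from control on the log2 scale in that fit (edgeR adjusted p = 1.00). All 6 libraries share 1 estimate of spread, and the aging SNL pair was 3.90 apart on the log2 scale for Vnn1.

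Without aging SNL replicate 1 in the fit the same difference in Vnn1 was -0.67 ± 0.25 (SE), with a 95% interval of -1.26 to -0.09 and an edgeR adjusted p of 0.238. Vnn3 was 0.32 ± 0.23 (SE) above control, with an interval of -0.23 to 0.87 (edgeR adjusted p = 0.568). In this fit of 5 libraries 0 of the 6 members were called by edgeR. Of 13630 genes 2.82% were called, 1.49% higher and 1.34% lower. Of the 6 members, 1 had an unadjusted p under 0.05, as did 16.4% of all genes. In a fit of the 4 libraries compared 0 members were called by edgeR. Of 13283 genes 2.88% were called there, 1.51% higher and 1.37% lower. Again 1 member had an unadjusted p under 0.05, as did 16.7% of all genes.

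Pank2 differed by 0.04 ± 0.07 (SE) and Pank3 by 0.04 ± 0.07 (SE) with spesolimab in the fit of 5 libraries, with 95% intervals of -0.13 to 0.21 for both. Pank1 differed by 0.15 ± 0.18 (SE), with an interval of -0.28 to 0.58, and Slc5a6 by 0.26 ± 0.20 (SE), with an interval of -0.21 to 0.73. CPM values lay above control without overlap for Vnn3, Pank2 and Slc5a6, as did those of 23.8% of all genes. Those of Vnn1 lay below without overlap, as did those of 24.6% of all genes.

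Spesolimab was also set against aging SNL replicate 2 alone, in the fit of 5 libraries. Vnn3 was -1.48 ± 0.25 (SE) and Vnn1 -1.26 ± 0.28 (SE) on the log2 scale, with 95% intervals of -2.06 to -0.89 and -1.93 to -0.58. Neither was called over all genes (edgeR adjusted p = 0.783 for both), nor was any of the 13630 genes, or 0%, of which 848 had an unadjusted p under 0.05. A DESeq2 result is not given for this comparison.

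The later steps of coenzyme A synthesis gave no calls. Ppcs, which joins cysteine to phosphopantothenate, Ppcdc, the decarboxylase that follows, and Coasy, which carries out the final steps, were tested with Pank4, and 0 of these 4 were called by edgeR in the comparisons run, with 0 at an unadjusted p under 0.05. Coasy was at 23.8 and 21.8 CPM in the controls, then 23.8 and 18.7 CPM in the aging SNL pair and 21.8 and 23.6 CPM under spesolimab. Ppcdc was at 24.9 and 27.2 CPM in the controls, then 30.2 and 22.9 CPM in the aging SNL pair and 25.6 and 30.1 CPM under spesolimab. Ppcs, at 6.27 to 8.43 CPM over the 6 libraries, had overlapping groups. In aging SNL replicate 2 against control 2 of the 4 were higher and 2 lower, with a median log2 fold change of -0.01 beside 0.00 over all genes tested.

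Glutathione synthesis was examined because loss of Vnn1 in mice is known to alter tissue glutathione. Of 8 genes tested, 7 were higher in aging SNL replicate 2, where 50.3% of all genes were higher. With spesolimab against control 4 of the 8 were higher and 4 lower. In the fit of 5 libraries 6 of the 8 had an unadjusted edgeR p under 0.05 there, beside 16.4% of all genes. Of the 8, 1 was called, beside 2.82% of all genes. In the fit of 6 libraries 0 of the 8 had an unadjusted p under 0.05, beside 6.17% of all genes. Gclc, the catalytic subunit of the rate-limiting enzyme, was at 27.7 and 29.7 CPM in the controls, then 346 and 64.7 CPM in the aging SNL pair and 58.3 and 71.1 CPM under spesolimab. All 4 libraries outside control were higher than both controls. It rose by 1.17 ± 0.13 (SE) in aging SNL replicate 2 (edgeR adjusted p = 0.0129) and by 1.17 ± 0.11 (SE) with spesolimab in the fit of 5 libraries (adjusted p = 0.00818). The median log2 fold change of the list in replicate 2 was 0.11. Gsr, which reduces oxidised glutathione, was at 27.6 and 29.9 CPM in the controls, then 97.0 and 34.7 CPM in the aging SNL pair and 35.2 and 39.1 CPM under spesolimab, and was not called. Ggt5, which breaks glutathione conjugates down outside the cell, was at 49.6 and 31.1 CPM in the controls, then 22.1 and 47.9 CPM in the aging SNL pair and 89.5 and 49.3 CPM under spesolimab, with overlapping aging SNL and control values.

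Of 12 enzymes of biotin and lipoate, the other cargo of the Slc5a6 transporter, 8 were higher in aging SNL replicate 2 and 1 was called, with a median of 0.11. Of all genes, 50.3% were higher and 3.43% were called there. Pcx, the biotin-dependent pyruvate carboxylase, was at 61.2 and 56.4 CPM in the controls, then 137 and 104 CPM in the aging SNL pair and 87.2 and 92.1 CPM under spesolimab. All 4 libraries outside control lay above both controls. Pcx rose by 0.82 ± 0.09 (SE) in aging SNL replicate 2 (edgeR adjusted p = 0.0129) and by 0.61 ± 0.08 (SE) with spesolimab in the fit of 5 libraries (adjusted p = 0.0165). Acaca, the biotin-dependent acetyl-CoA carboxylase of fatty acid synthesis, was at 146 and 153 CPM in the controls, then 159 and 190 CPM in the aging SNL pair and 185 and 175 CPM under spesolimab, and was not called. Lipt1, a lipoyltransferase, had 4.17 and 4.60 CPM in the controls and 2.92 to 3.49 CPM in the other 4 libraries, not called either.

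PPAR factors and their target genes were listed because Vnn1 is a known target of PPAR alpha in mouse liver. Of 22 genes 17 were tested, of which 9 were higher in aging SNL replicate 2, with a median of 0.10. Of all genes, 50.3% were higher there. With spesolimab against control in the fit of 6 libraries, 9 of the 17 were higher and 8 lower. Of the 17, 3 had an unadjusted edgeR p under 0.05 in that fit, beside 6.17% of all genes. Pdk4, a kinase that holds back pyruvate oxidation, was at 6.63 and 5.89 CPM in the controls, then 34.9 and 20.2 CPM in the aging SNL pair and 30.1 and 26.4 CPM under spesolimab. Its controls lay far below the other 4 libraries. Pdk4 rose by 1.69 ± 0.15 (SE) in aging SNL replicate 2 (edgeR adjusted p = 0.00851) and by 2.17 ± 0.13 (SE) with spesolimab in the fit of 5 libraries (adjusted p = 0.00214). Acaa1b, a peroxisomal thiolase, was at 6.86 and 7.62 CPM in the controls, then 3.35 and 3.25 CPM in the aging SNL pair and 4.85 and 4.12 CPM under spesolimab, and was not called (adjusted p = 0.0567 in replicate 2).

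The comparisons of aging SNL replicate 2 and of spesolimab share their control libraries, so the values of Gclc, Pcx and Pdk4 in them are not independent. These genes were also named for the lowest p of their lists in the same comparisons, so their separation from control is partly built in. Of all genes, 20.9% lay above control without overlap in aging SNL and 23.8% with spesolimab. The share of all genes that did so in both was not counted. With no filter on low counts Gclc and Pcx were not called in aging SNL replicate 2 (edgeR adjusted p = 0.0635 and 0.0567), while Pdk4 was (0.0491). In the 6-library fits edgeR called 0 of the genes in each list, and of all genes 0% in aging SNL against control (1694 at an unadjusted p under 0.05, 445 by DESeq2) and 0% in spesolimab against aging SNL (392 and 3).

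**Figure D4:**
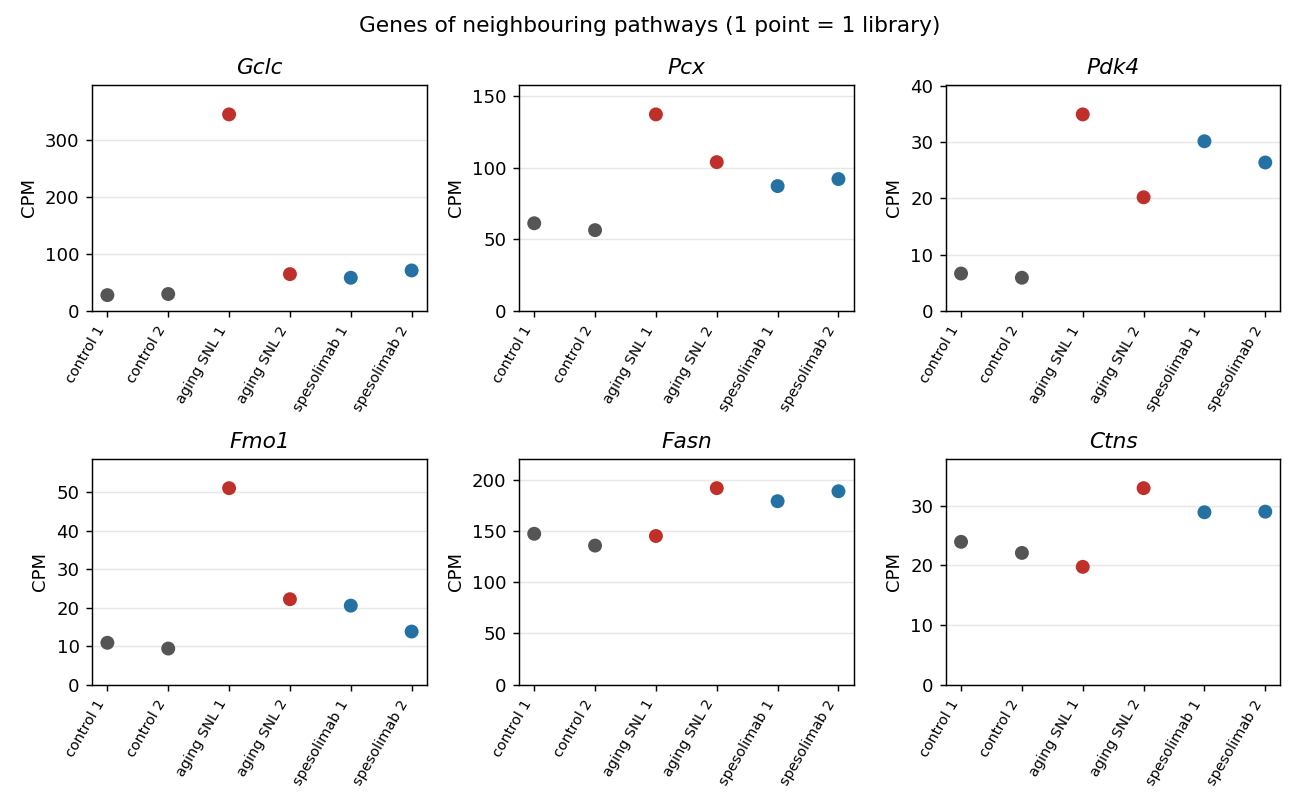
CPM of 6 genes of neighbouring pathways in each library, with 1 point per library and axes starting at 0. All 6 genes were named for a low p against control. Gclc, Pcx and Pdk4 are lower in both controls than in the other 4 libraries. Fasn and Ctns in aging SNL replicate 1, at 145 and 19.8 CPM, are within or below the control values.

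Cysteamine is oxidised to hypotaurine, and 9 of the 10 listed genes of cysteamine, cysteine and taurine were tested. In aging SNL replicate 2, 6 of them were higher and 0 were called by edgeR, with a median of 0.52. Of the 9, 4 had an unadjusted p under 0.05, as did 20.3% of all genes. Ado, which oxidises cysteamine, was at 23.0 and 24.0 CPM in the controls, then 21.2 and 22.4 CPM in the aging SNL pair and 20.9 and 20.9 CPM under spesolimab. Fmo1, which oxidises hypotaurine to taurine, was at 10.9 and 9.36 CPM in the controls, then 51.0 and 22.2 CPM in the aging SNL pair and 20.5 and 13.8 CPM under spesolimab (adjusted p = 0.0547 in replicate 2, edgeR). Ctns, the lysosomal cystine exporter, was at 23.9 and 22.1 CPM in the controls, then 19.8 and 33.0 CPM in the aging SNL pair and 28.9 and 29.0 CPM under spesolimab (adjusted p = 0.0519). Fmo1 was thus highest in aging SNL replicate 1, and Ctns was lowest there.

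Of 11 genes of coenzyme A carriers, coenzyme A hydrolases and phosphopantetheine proteins, 8 were higher in aging SNL replicate 2 and 0 were called by edgeR, with a median of 0.24. Of the 11, 3 had an unadjusted p under 0.05, a share near the 20.3% of all genes. Fasn, the fatty acid synthase, which carries a phosphopantetheine arm, was at 147 and 136 CPM in the controls, then 145 and 192 CPM in the aging SNL pair and 179 and 189 CPM under spesolimab. Nudt7, a peroxisomal coenzyme A hydrolase, was at 12.1 and 9.64 CPM in the controls, then 12.3 and 15.2 CPM in the aging SNL pair and 14.8 and 14.3 CPM under spesolimab. Aldh1l1, a folate enzyme with the same arm, was at 28.0 and 18.3 CPM in the controls, then 40.7 and 31.0 CPM in the aging SNL pair and 46.1 and 34.7 CPM under spesolimab. None of these 3 was called.

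Of 13 acyl-CoA synthetases and thioesterases, which attach acyl groups to coenzyme A or take them off, 9 were higher in aging SNL replicate 2 and 0 were called by edgeR, with a median of 0.26. Of the 13, 4 had an unadjusted p under 0.05, beside 20.3% of all genes. Acss2, the cytosolic acetyl-CoA synthetase, was at 14.0 and 11.7 CPM in the controls, then 20.1 and 19.6 CPM in the aging SNL pair and 17.1 and 19.7 CPM under spesolimab. Acsl1, a long-chain acyl-CoA synthetase, was at 48.8 and 46.8 CPM in the controls, then 58.4 and 63.3 CPM in the aging SNL pair and 59.2 and 52.8 CPM under spesolimab. Both had control values below the other 4 libraries, and both were named for a low p against control. Acsl6, the other gene named from this list, stood under 1 CPM in each library.

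For each vanin the 5 genes with the most similar profile over the 6 libraries were found among 10575 genes, by the root-mean-square difference between log2 CPM values set to 0 at the control mean. For Vnn1 they were Ptgs2 (0.48), the inducible cyclooxygenase, Cxcl2 (0.50) and Cxcl1 (0.77), neutrophil chemokines, Nos2 (0.61), the inducible nitric oxide synthase, and Rgs2 (0.69), a regulator of G protein signalling. For Vnn3 they were Saa2 (0.47), an acute-phase gene whose near-identical copy Saa1 makes its counts uncertain, Mmp3 (0.58), a matrix protease, Nos2 (0.60), and the metallothionein genes Mt1 (0.67) and Mt2 (0.70). Nos2 was the gene shared by both lists. Aging SNL replicate 1 was the highest library of every one of these profiles. That library was part of the search, so a shared peak there follows from the way the genes were found. With spesolimab Saa2, Mmp3, Mt1 and Mt2 stood above both controls. Cxcl2, Cxcl1 and Nos2, which is in both lists, stood below both controls, and Ptgs2 and Rgs2 overlapped them. Saa2 had 1.77 and 1.68 CPM in the controls and 4.26 and 3.06 CPM under spesolimab, and Cxcl1 at 53.4 and 76.8 CPM against 29.2 and 33.3 CPM.

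**Figure D5:**
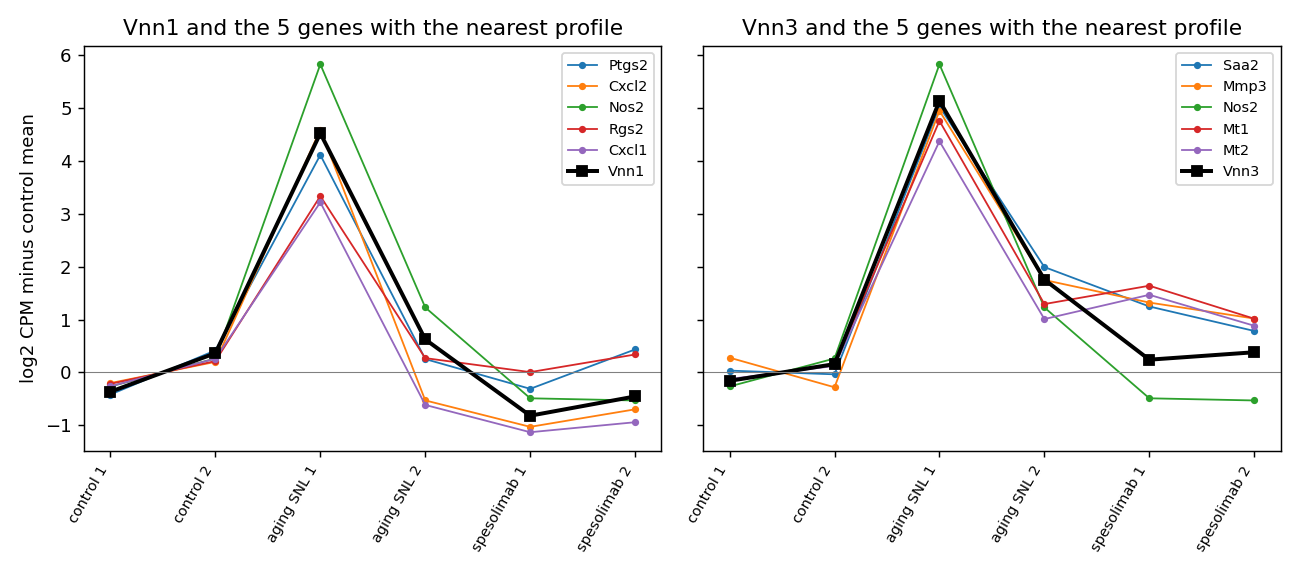
Log2 CPM minus the control mean in each library for Vnn1 (left, black) and Vnn3 (right, black) with the 5 genes of most similar profile; lines join libraries for legibility only. Aging SNL replicate 1 is the peak of each profile, at 4.53 for Vnn1 and 5.14 for Vnn3. The search for similar profiles used that library, so the shared peak follows from it.

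Promoter windows reaching from 250 bases before to 50 after the start were given in RefSeq (GRCm38.p6) for 5 of the 6 members, Vnn1 being the other, and 9 windows in all. They were searched on both strands for GGNNTTTCC (NF-kB), TGANTCA (AP-1), TTGCNNAA (C/EBP), AGGTCANAG (part of a PPAR repeat) and TGACNNNGC (antioxidant response). These letters occurred in 5.82%, 7.81%, 10.8%, 2.01% and 12.4% of 32851 windows of all genes. The Vnn3 window is shown because Vnn3 was the member called in aging SNL replicate 2. It lies at chr10:23851212-23851511 on the plus strand and held 1 match to the antioxidant response letters, beginning 82 bases before the start, and 1 to the C/EBP letters, beginning 25 bases before it, both in capitals.
Vnn3 promoter: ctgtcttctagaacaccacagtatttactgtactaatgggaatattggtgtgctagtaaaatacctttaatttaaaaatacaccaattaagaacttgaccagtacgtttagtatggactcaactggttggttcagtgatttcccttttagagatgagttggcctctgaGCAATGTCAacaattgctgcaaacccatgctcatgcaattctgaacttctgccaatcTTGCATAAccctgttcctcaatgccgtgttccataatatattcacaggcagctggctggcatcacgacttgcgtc

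Of the other windows, 1 of Pank1 held the NF-kB letters and 1 of Pank2 the antioxidant response letters. The remaining 6 windows held none of the 5. A match is a description of the letters and not a binding site.

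Markers of other cells were summed in each library beside the vanins. All 9 macrophage markers had counts, and their sum was 102 and 23.7 CPM in the controls, then 131 and 38.1 CPM in the aging SNL pair and 134 and 34.5 CPM under spesolimab. Replicate 1 was the higher in each group. Vnn1 was higher in replicate 1 of aging SNL and lower in replicate 1 of control and of spesolimab. Lyz2 had the largest means, at 42.1, 50.5 and 58.6 CPM in control, aging SNL and spesolimab. Cd14 was at 4.02 ± 0.455, 13.1 ± 10.2 and 5.92 ± 0.0512 CPM (SD, n = 2). Cd14, Cd68 and Itgam had their highest group mean in aging SNL, while Csf1r, Adgre1, C1qb and Ptprc had their lowest there. Synovial fibroblast markers, all 6 with counts, summed to 382 and 312 CPM in the controls, then 749 and 423 CPM in the aging SNL pair and 509 and 463 CPM under spesolimab. The sum was highest in aging SNL replicate 1, as the vanins were, and most of it there was Prg4, at 488 CPM against 144 to 261 CPM in the other libraries. Thy1, Pdpn and Clic5 were also highest in that library. Cd55, at 23.6 CPM, lay between the controls there, and Htra4, at 2.42 CPM, was at its lowest. Of 8 neutrophil markers 4 had values, which summed to 0.642 to 4.82 CPM over the 6 libraries, with 4.35 and 4.82 CPM in aging SNL, and Mpo was at 0 in 5 libraries. Of 6 keratinocyte markers 5 had values, which summed to 16.4 to 23.7 CPM, with Krt14 at 0 in 5 libraries and Krt5 at 0 in 3. Most of that sum was Trp63, with means of 18.8, 14.7 and 17.3 CPM in control, aging SNL and spesolimab. Of 6 hepatocyte markers 2 had values, and their sum was at most 0.181 CPM, with Alb at 0 in 4 libraries and Apoa1 at 0 in 2. The part of macrophages and synovial fibroblasts in the vanin values was not tested.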

How the data were processed

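RNA was measured in mouse primary articular chondrocytes by poly(A)-selected RNA-seq, per the labels' protocols. Per the file headers, the authors deposited expected counts per gene without scaling, of which 12.3% were not whole. The deposited TPM values, so named in the file headers, are scaled for gene length and library size. FPKM values were also deposited and were not used, nor were 9 columns of group averages. The submitters' processing notes list RSEM 1.3.1, Bowtie2 2.3.4.3, the build GRCm39 and DESeq2 1.4.5 with no role given; strand and annotation are not given in the sources used here. Of 22173 genes 17189 had values.

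Counts were rounded and tested with edgeR 4.0.16 (R 4.3.3): filterByExpr (minimum count 10, minimum total 15), TMM, the quasi-likelihood test and Benjamini-Hochberg adjustment over all genes tested, threshold 0.05. Standard errors are the log2 fold change divided by the root of its F statistic, and intervals use the fit's degrees of freedom. Alternatives used DESeq2 1.42.0 and limma 3.58.1.

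The members, lists and naming rule were chosen with earlier results of these data known. The rule named the members, Pank4, Ppcs, Ppcdc and Coasy, the 2 genes of lowest p in each other list in spesolimab and in aging SNL replicate 2, each against control, and the 5 most similar profiles per vanin. The fitting code was tested on simulated data. Coding sequences were aligned with Biopython 1.88.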

Additional observations from a re-analysis of the deposited data

How the results depend on the processing

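In the comparisons tested, the members kept their direction under the alternatives run, except in 5 cases. Pank3 with spesolimab against control was -0.051 and -0.052 on TPM with a pseudocount of 1 and 0.1, and Pank2 in aging SNL replicate 2 against control was -0.060 and -0.062. Pank1 with spesolimab was 0.37 without control replicate 1 and -0.040 without control replicate 2. On TPM with a pseudocount of 1 the median of all genes in aging SNL against control moved to -0.22 from 0.01. Relative to that median Pank2, which was itself -0.14 there, stood at 0.08 and Pank3, at -0.18, stood at 0.04. In spesolimab against aging SNL on that scale Pank2, Pank3 and Slc5a6 also changed sign, to 0.19, 0.13 and 0.04, beside a median of 0.14.

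Counts of genes called depended on the libraries in the fit. For spesolimab against control edgeR called 0 in 6 libraries, 385 without aging SNL replicate 1 and 382 in the 4 compared, and DESeq2 called 160. For aging SNL against control edgeR called 0, DESeq2 445, and leaving out 1 library gave 0 to 3525 (467 without aging SNL replicate 1, 3525 without replicate 2). For spesolimab against aging SNL edgeR called 0, DESeq2 3, and leaving out 1 library gave 0 to 2810, the last without aging SNL replicate 2. For aging SNL replicate 2 against control edgeR called 467, 41 without the filter, DESeq2 613 and limma 205 and 224 on TPM. The cause of these differences was not tested.

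With the replicate number as a block edgeR called 0 in each comparison of 6 libraries, 2067 in aging SNL replicate 2 against control and 2081 in the 4 libraries of spesolimab against control. The last 2 fits, each with 1 residual degree of freedom, and the fit of 5 libraries for spesolimab were chosen after the data were seen. In aging SNL replicate 2 the block gave 1.68 for Vnn3 (edgeR adjusted p = 1.67e-06), 0.33 for Vnn1 in place of 0.58 (0.0795) and 0.73 for Slc5a6, which it called (0.0470). With spesolimab in 4 libraries it called Vnn1 at -0.66 (5.68e-05). Deviations of same-numbered libraries correlated across genes at 0.25 to 0.42 in the 3 pairs of groups, a hint that the numbers tie the libraries. With 2 numbers and no batch in the labels, they were not taken to pair the samples. Depth limited Vnn3 in control, where 39 and 50 counts carry a counting error of 16.0% and 14.1%.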
